A study of Homo sapiens with 6 samples.

Results

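Cholesterol and fatty acid synthesis was followed through 30 named genes out of the 60664 in an RNA sequencing table of SW480, a cultured line that was derived from a colorectal adenocarcinoma of a patient. The 30 genes were taken by symbol, each had a single row, and all 30 passed the filter of at least 1 TPM in at least 3 libraries. TPM, an abundance unit of RNA sequencing, is a share of each library scaled by transcript length, so levels can be compared between genes, but it keeps no read number and the depth is unknown. The cells, labelled wild type in both groups, had been given Amuc_0904 (3 libraries) or buffer (3 libraries). Locus tags of Akkermansia muciniphila, a bacterium of the gut, are written like the name Amuc_0904. The labels give no preparation, dose or exposure time. They do not say whether libraries came from separate cultures, so p-values measure only the spread between these libraries, which may be technical, in a single cell line. The comparison asks which of these genes differed in level between cells given Amuc_0904 and cells given buffer.

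Cells build cholesterol from acetyl-CoA by way of mevalonate, farnesyl diphosphate, squalene and lanosterol, and they build fatty acids by carboxylating acetyl-CoA, joining the units into palmitate, and then elongating and desaturating the chain. Genes of both branches are targets of the SREBP transcription factors, encoded by SREBF1 and SREBF2. When sterols are plentiful these factors are held in the endoplasmic reticulum by SCAP and INSIG proteins, and when sterols are scarce they are carried to the Golgi, cut and released to the nucleus. Proliferating tumour cells use the products for new membranes.

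The promoters of 5 genes are shown: 4 of the genes with the smallest p-values (SREBF2, DHCR7, LSS and MVK) and ELOVL6, whose difference lay in the other direction. Each window runs from 250 bases before to 50 bases after a transcript start in RefSeq on GRCh38.p14, read in the direction of transcription. Capitals mark matches on either strand to TCACNCCAC (a sterol regulatory element, bound by SREBP factors), CACGTG (an E-box), CCAAT (bound by NF-Y) and GGGCGG (a GC box, bound by Sp1). NF-Y and Sp1 are known to act with SREBP factors at promoters of these pathways.
SREBF2, chr22:41832855-41833154, plus strand: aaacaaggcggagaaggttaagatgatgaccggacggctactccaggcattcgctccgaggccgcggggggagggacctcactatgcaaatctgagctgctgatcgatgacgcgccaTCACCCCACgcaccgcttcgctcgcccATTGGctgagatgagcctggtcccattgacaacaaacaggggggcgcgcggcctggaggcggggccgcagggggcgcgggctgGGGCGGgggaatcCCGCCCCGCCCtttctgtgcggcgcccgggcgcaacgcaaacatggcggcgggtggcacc
DHCR7, chr11:71448344-71448643, minus strand: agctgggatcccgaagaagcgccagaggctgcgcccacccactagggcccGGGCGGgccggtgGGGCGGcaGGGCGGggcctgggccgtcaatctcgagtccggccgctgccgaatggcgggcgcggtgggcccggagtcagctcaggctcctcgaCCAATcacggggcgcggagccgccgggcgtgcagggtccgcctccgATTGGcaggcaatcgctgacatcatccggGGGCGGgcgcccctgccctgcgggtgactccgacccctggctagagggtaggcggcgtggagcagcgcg
LSS, chr21:46228725-46229024, minus strand: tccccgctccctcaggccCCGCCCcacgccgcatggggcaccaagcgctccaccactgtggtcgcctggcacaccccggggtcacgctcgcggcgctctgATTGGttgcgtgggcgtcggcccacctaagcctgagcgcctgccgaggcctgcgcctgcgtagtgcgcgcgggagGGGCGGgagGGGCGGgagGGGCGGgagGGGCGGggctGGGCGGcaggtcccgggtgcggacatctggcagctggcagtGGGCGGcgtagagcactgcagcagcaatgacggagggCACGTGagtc
MVK, chr12:109573544-109573843, plus strand: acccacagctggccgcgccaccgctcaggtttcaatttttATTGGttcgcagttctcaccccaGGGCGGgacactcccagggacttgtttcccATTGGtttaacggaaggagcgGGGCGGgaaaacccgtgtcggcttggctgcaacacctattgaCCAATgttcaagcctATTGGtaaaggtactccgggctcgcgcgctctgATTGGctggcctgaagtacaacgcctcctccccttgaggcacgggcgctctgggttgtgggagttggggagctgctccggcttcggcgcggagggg
ELOVL6, chr4:110198566-110198865, minus strand: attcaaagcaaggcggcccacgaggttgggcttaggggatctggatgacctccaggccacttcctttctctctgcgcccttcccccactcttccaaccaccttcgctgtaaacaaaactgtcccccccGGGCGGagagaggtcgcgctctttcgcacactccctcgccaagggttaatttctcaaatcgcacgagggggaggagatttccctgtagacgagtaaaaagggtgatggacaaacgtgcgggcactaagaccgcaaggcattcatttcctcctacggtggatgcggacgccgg

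The SREBF2 window held the sterol regulatory element letters at position -133 and a CCAAT match at position -106, counted from the transcript start, and its GC boxes at -10 and -5 overlap. MVK had 5 CCAAT matches and 2 GC boxes. LSS had 1 CCAAT match, 7 GC boxes and 1 E-box. The DHCR7 window shown had 2 CCAAT matches and 4 GC boxes, and a second DHCR7 window had none of the motifs. ELOVL6 had 1 GC box and no other match.

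The promoter table used, drawn from RefSeq, held 36 windows for 26 of the 30 genes, all but ACAT2, FASN, FDFT1 and SQLE. CCAAT was present in 19 of these 26 genes (73.1%), against 39.7% of all 27305 genes in the promoter table, and GGGCGG in 25 (96.2%), against 48.3%. CACGTG was present in INSIG1, LSS, SC5D and SCAP (15.4%, against 8.77%) and TCACNCCAC in SREBF2 alone (3.85%, against 1.39%). The 27305 genes were not limited to those expressed in these cells, while the 30 all were, and shares over expressed genes alone were not taken. CCAAT was found in 10 of the 13 matched genes whose Amuc_0904 libraries all lay below the buffer libraries, and in 9 of the 13 whose groups overlapped. For GGGCGG these counts were 12 of 13 and 13 of 13. Only these exact letters were searched, with N standing for any base, so variants of an element would be missed. A match is only a run of letters in a window, and the search says nothing of binding.

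Across the whole series, between 14244 and 14420 genes per library reached 1 TPM in Amuc_0904 libraries and between 14481 and 14586 in buffer libraries. The epithelial markers summed to between 7092 and 7380 TPM in Amuc_0904 libraries, against 7907 to 8148 TPM in buffer libraries, and VIL1 (villin) did not exceed 1.09 TPM in any library. CDH1 (E-cadherin) was the 1 epithelial marker with a limma adjusted p under 0.05. It averaged 3.803 ± 0.246 TPM with Amuc_0904 and 7.01 ± 1.2 TPM with buffer (limma adjusted p = 0.0444, and 0.0541 with the GC trend of each library removed). For EPCAM, KRT8, KRT19 and CDX2, too, every Amuc_0904 library lay below every buffer library (all tested genes 20.1%), while KRT18 and VIL1 overlapped. Leukocyte markers summed to between 3.62 and 4.81 TPM in Amuc_0904 libraries, against 2.24 to 3.65 TPM in buffer libraries, mostly CD68, with PTPRC at 0, and their part in the results was not tested. Fibroblast, endothelial, and hepatocyte and adipocyte markers summed to at most 2.19, 0.54 and 0.71 TPM in Amuc_0904 libraries, against 3.18, 0.8 and 0.51 TPM in buffer libraries, with DCN, KDR and FABP4 at 0. TPM is a share of bulk RNA, in which fewer cells of a type and less RNA per cell cannot be told apart. The slope of expression with the GC content of transcripts, in log2 units per 10 percentage points, was 0.028, 0.071 and -0.043 in Amuc_0904 libraries, against 0.074, 0.16 and 0.12 in buffer libraries. Each Amuc_0904 slope was below each buffer slope, so GC-rich transcripts tended to be relatively lower with Amuc_0904. Amuc_0904 replicate 2 and buffer replicate 1 had nearly equal slopes. The first principal component, with 33.8% of the variance, separated the groups and had Amuc_0904 replicate 3 at one end and buffer replicate 2 at the other.

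None of the 30 genes passed the test between Amuc_0904 and buffer, in either direction (limma on log2(TPM + 1), Benjamini-Hochberg adjustment over 14421 genes, threshold 0.05). Over all tested genes 1.37% passed, 0.999% lower and 0.368% higher with Amuc_0904. Most of the 30 fitted differences were small and negative: 27 log2 fold changes lay below 0, against 62.5% of all tested genes, with a median of -0.14, against -0.06. At an unadjusted p under 0.05 in the same limma fit, 13 of the 30 genes were lower (all tested genes 16.3%) and ELOVL6 alone was higher (all tested genes 4.49%). In 15 of the 30, or 50%, every Amuc_0904 library lay below every buffer library, and in 0 every one lay above. The shares over all tested genes were 20.1% and 7.0%. Without both Amuc_0904 replicate 3 and buffer replicate 2, 0 of the 30 passed and the median was -0.18.

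The summed TPM of the 30 genes was 1249, 1265 and 1326 in Amuc_0904 libraries, against 1434, 1486 and 1373 in buffer libraries. The groups did not overlap, and the ratio of their means was 0.895. A sum of 7 epithelial markers, led by keratins, had a ratio of 0.9. The 95% interval of the fit lay within a 1.5-fold change in either direction for 26 of the 30 genes, all but SREBF2, SREBF1, FASN and ELOVL6.

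**Figure D1:**
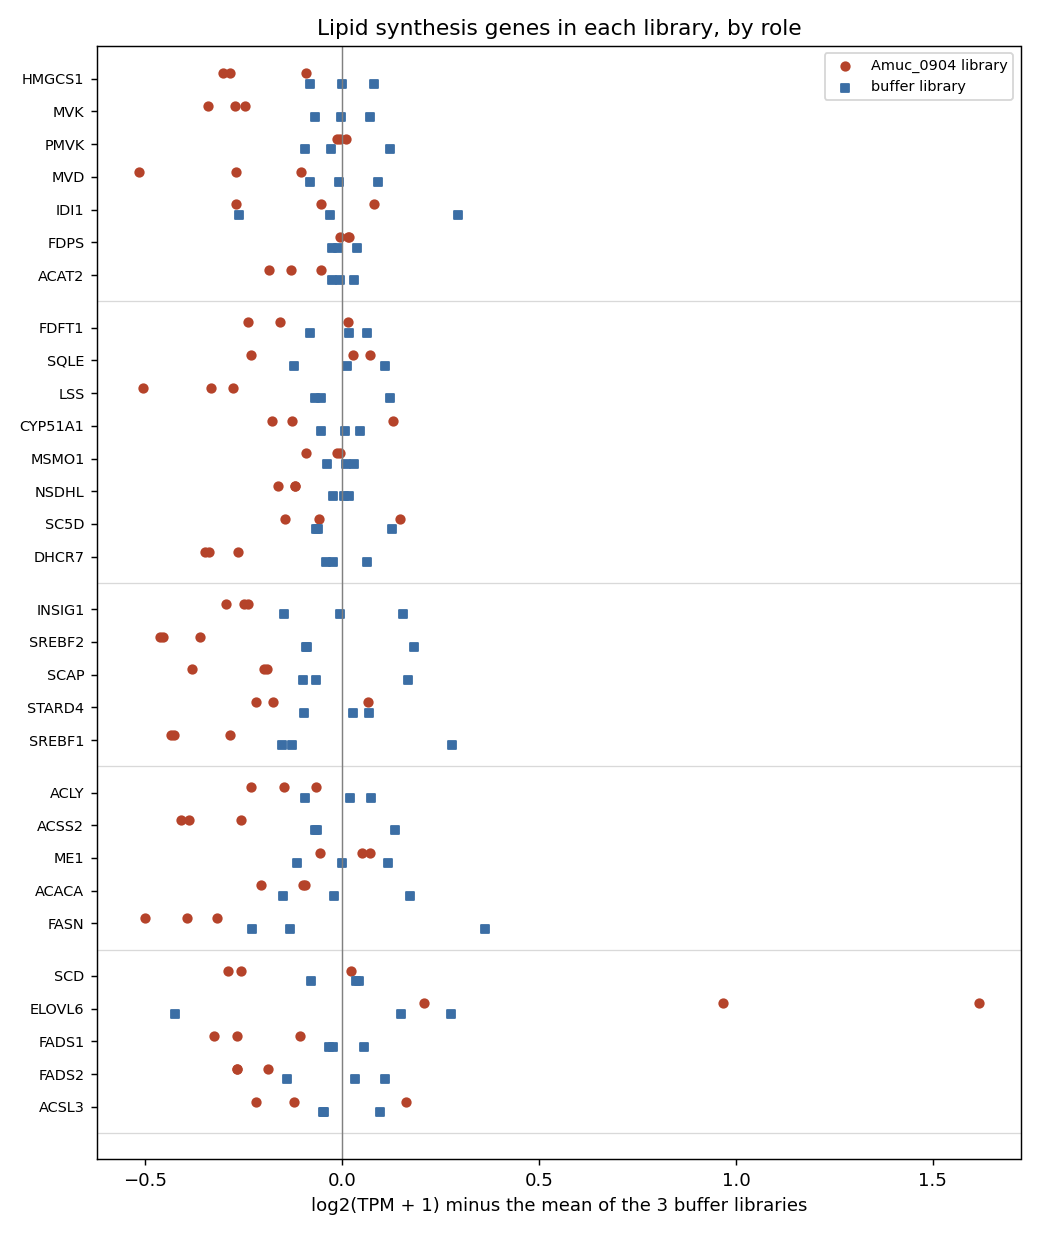
Each of the 30 genes in each library, grouped by role, as log2(TPM + 1) minus the mean of the 3 buffer libraries, with Amuc_0904 libraries as circles and buffer libraries as squares just under them. In 15 of the 30 genes the circles all lie left of the squares, and ELOVL6 has 2 circles far to the right.

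The 5 genes of sterol sensing and transport had the lowest median log2 fold change of the 5 roles, -0.26. All 5 values were negative, and 0 passed the test. In 4 of the 5 all Amuc_0904 libraries were below all buffer libraries (all tested genes 20.1%). SREBF2, SCAP and SREBF1 had a GC content of at least 55%, and 37.8% of all tested genes of that GC content were lower in this way. With the GC trend of each library removed, the median of these 5 genes was -0.19, still the lowest of the 5 roles. SREBF2 (ENSG00000198911), whose product drives cholesterol synthesis genes, had 22.54, 24.11 and 22.42 TPM in Amuc_0904 libraries, against 29.26, 35.64 and 29.31 TPM in buffer libraries. Every Amuc_0904 library was below every buffer library, and buffer replicate 2 was the highest. The log2 fold change of SREBF2 was -0.43 (SE 0.093, 95% interval -0.64 to -0.21, limma adjusted p = 0.0642), the most negative of the 30.

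SREBF1 (ENSG00000072310), whose products drive fatty acid synthesis genes, had 33.44, 37.2 and 33.66 TPM in Amuc_0904 libraries, against 40.91, 55.51 and 41.67 TPM in buffer libraries. The groups did not overlap, and buffer replicate 2 again stood well above the others. The log2 fold change of SREBF1 was -0.38 (SE 0.12, limma adjusted p = 0.124), and without buffer replicate 2 it was -0.24. SCAP, the escort of SREBP proteins to the Golgi, averaged 27.8 ± 2.11 TPM with Amuc_0904 and 33.5 ± 3.57 TPM with buffer (SD, n = 3 each). INSIG1, which retains SCAP in the endoplasmic reticulum and is itself an SREBP target, averaged 12.3 ± 0.270 TPM with Amuc_0904 and 15.02 ± 1.67 TPM with buffer. Neither gene's groups overlapped, and limma adjusted p was 0.180 for SCAP and 0.181 for INSIG1. STARD4, a sterol transfer protein gene, averaged 22.9 ± 2.60 TPM with Amuc_0904 and 24.7 ± 1.51 TPM with buffer, with overlap.

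The 8 genes from squalene to cholesterol had 8 negative log2 fold changes with a median of -0.09, and 0 past the test. In 3 of the 8 all Amuc_0904 libraries were below all buffer libraries (all tested genes 20.1%). DHCR7 (ENSG00000172893), the reductase of a last step of the pathway, had 68.73, 72.36 and 68.28 TPM in Amuc_0904 libraries, against 84.69, 91.15 and 85.79 TPM in buffer libraries. The gap between the groups was wider than the range within either one. The log2 fold change of DHCR7 was -0.32 (SE 0.061, 95% interval -0.46 to -0.18), with a difference in mean TPM of -20.0%, and its limma adjusted p of 0.0505 was the smallest of the 30. With genes under a mean of 5 TPM left out, DHCR7 (limma adjusted p = 0.0388) and SREBF2 (0.0435) passed. Under that filter 366 of all 10251 tested genes passed, 65 higher and 301 lower with Amuc_0904. With the main filter and the GC trend of each library removed, limma adjusted p was 0.163 for DHCR7 and 0.127 for SREBF2.

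LSS (ENSG00000160285), the cyclase that makes lanosterol, had 22.65, 26.72 and 25.67 TPM in Amuc_0904 libraries, against 31.36, 35.51 and 31.03 TPM in buffer libraries. Its groups did not overlap, and the log2 fold change of LSS was -0.37 (SE 0.090, limma adjusted p = 0.0786). NSDHL, a dehydrogenase in the removal of sterol methyl groups, averaged 35.7 ± 0.626 TPM with Amuc_0904 and 39.2 ± 0.564 TPM with buffer (SD, n = 3 each). Its groups were tight and apart, while the difference was small (log2 fold change -0.13, limma adjusted p = 0.260). The other 5 genes overlapped between groups. Their log2 fold changes were -0.13 for FDFT1 (squalene synthase), -0.06 for CYP51A1 (lanosterol demethylase), -0.045 for SQLE (squalene monooxygenase), -0.04 for MSMO1 (a methylsterol oxidase) and -0.02 for SC5D (a sterol desaturase), with limma adjusted p from 0.412 to 0.938. All of these but FDFT1 had positive log2 fold changes when each library was centred on its median.

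The 7 mevalonate and isoprenoid genes had 6 negative log2 fold changes, a median of -0.12 and 0 past the test. In 4 of the 7 all Amuc_0904 libraries were below all buffer libraries (all tested genes 20.1%). MVK (ENSG00000110921), mevalonate kinase, had 9.23, 9.42 and 8.75 TPM in Amuc_0904 libraries, against 11.98, 10.78 and 11.34 TPM in buffer libraries. Every Amuc_0904 library was lower, with a log2 fold change of -0.29 (SE 0.089, limma adjusted p = 0.124). MVD, the decarboxylase that ends the mevalonate steps, averaged 29.3 ± 4.29 TPM with Amuc_0904 and 36.1 ± 2.25 TPM with buffer, and HMGCS1, the cytosolic HMG-CoA synthase, averaged 16.9 ± 1.48 TPM with Amuc_0904 and 20.0 ± 1.18 TPM with buffer (SD, n = 3 each). ACAT2, the cytosolic thiolase at the entry to the pathway, averaged 94.5 ± 4.35 TPM with Amuc_0904 and 103 ± 2.07 TPM with buffer. MVD, HMGCS1 and ACAT2 also had no overlap between groups.

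FDPS, farnesyl diphosphate synthase, was the most abundant of the 30 transcripts at 238 ± 2.14 TPM with Amuc_0904 and 237 ± 5.45 TPM with buffer. Its log2 fold change was 0.01 with a 95% interval of -0.11 to 0.12. PMVK, phosphomevalonate kinase, averaged 32.0 ± 0.277 TPM with Amuc_0904 and 32.2 ± 2.58 TPM with buffer, with a log2 fold change of -0.003 (95% interval -0.18 to 0.17). IDI1, the isopentenyl diphosphate isomerase, had a wider interval around its log2 fold change of -0.08 (-0.43 to 0.27). FDPS, PMVK and IDI1 overlapped between groups.

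Among the 5 genes of acetyl-CoA supply and fatty acid synthesis the median log2 fold change was -0.15, with 4 negative values and 0 past the test. In 2 of the 5 all Amuc_0904 libraries were below all buffer libraries (all tested genes 20.1%). ACSS2 (ENSG00000131069), which makes acetyl-CoA from acetate, had 27.64, 27.24 and 30.36 TPM in Amuc_0904 libraries, against 34.73, 40.13 and 34.85 TPM in buffer libraries. Every Amuc_0904 library was lower, with a log2 fold change of -0.35 (SE 0.084, limma adjusted p = 0.0767). FASN (ENSG00000169710), fatty acid synthase, had 64.22, 69.17 and 73.07 TPM in Amuc_0904 libraries, against 83.12, 117.61 and 77.71 TPM in buffer libraries. The groups did not overlap, but buffer replicate 2 lay far above the rest: the log2 fold change of FASN was -0.40 (SE 0.14, limma adjusted p = 0.162) and -0.22 without that library.

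ACLY, which makes cytosolic acetyl-CoA from citrate, averaged 111 ± 6.38 TPM with Amuc_0904 and 123.0 ± 7.35 TPM with buffer (SD, n = 3 each). ACACA, the carboxylase that commits carbon to fatty acids, averaged 24.1 ± 1.09 TPM with Amuc_0904 and 26.7 ± 3.14 TPM with buffer. ME1, a malic enzyme that supplies NADPH, averaged 11.1 ± 0.567 TPM with Amuc_0904 and 10.95 ± 0.960 TPM with buffer. All 3 overlapped between groups.

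**Figure D2:**
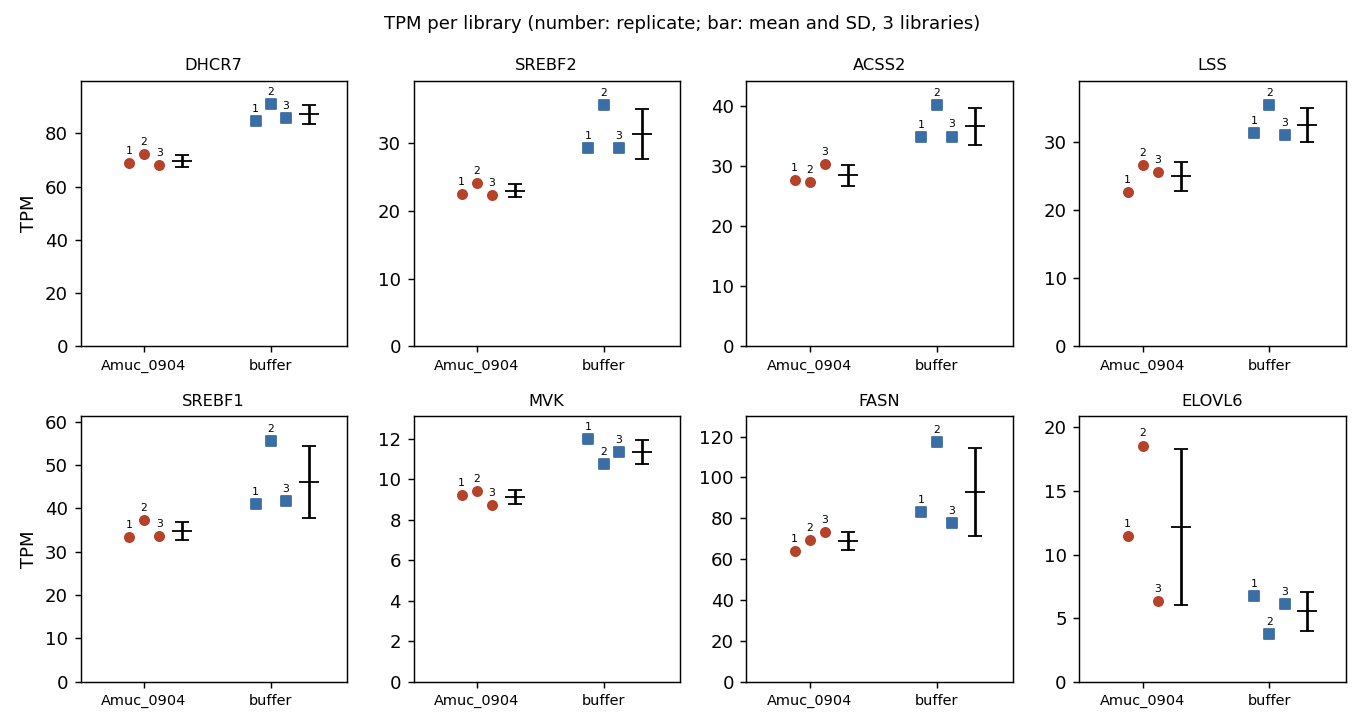
TPM in each library for the 6 genes with the smallest adjusted p, FASN and ELOVL6, with Amuc_0904 as circles on the left, buffer as squares on the right, replicate numbers above the points and bars for the mean and SD of 3 libraries. Buffer replicate 2 is the highest point for DHCR7, SREBF2, ACSS2, LSS, SREBF1 and FASN, and the Amuc_0904 values of ELOVL6 spread from 6.37 to 18.58 TPM.

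The 5 genes of elongation, desaturation and activation had a median log2 fold change of -0.17, with 4 negative values and 0 past the test. In 2 of the 5 all Amuc_0904 libraries were below all buffer libraries (all tested genes 20.1%). FADS1, a desaturase of polyunsaturated fatty acids, averaged 46.5 ± 3.79 TPM with Amuc_0904 and 54.7 ± 1.91 TPM with buffer, and FADS2, its partner in the same chain of reactions, averaged 21.7 ± 0.728 TPM with Amuc_0904 and 25.9 ± 2.33 TPM with buffer (SD, n = 3 each). Neither overlapped between groups (limma adjusted p = 0.137 and 0.164). SCD, the stearoyl-CoA desaturase, averaged 81.6 ± 10.1 TPM with Amuc_0904 and 91.8 ± 4.31 TPM with buffer, and ACSL3, an acyl-CoA synthetase, averaged 20.3 ± 3.0 TPM with Amuc_0904 and 21.1 ± 1.29 TPM with buffer, both with overlap.

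ELOVL6 (ENSG00000170522), the elongase that extends palmitate to stearate, had 11.48, 18.58 and 6.37 TPM in Amuc_0904 libraries, against 6.73, 3.76 and 6.08 TPM in buffer libraries. Amuc_0904 replicate 3 lay inside the buffer range and the other two above it. The log2 fold change of ELOVL6 was 0.93 (SE 0.33, 95% interval 0.17 to 1.69, limma adjusted p = 0.166), the largest in size of the 30 with the largest SE, and it ran from 0.59 without Amuc_0904 replicate 2 to 1.29 without Amuc_0904 replicate 3. ELOVL6 had the lowest mean TPM of the 30 in buffer, while MVK had the lowest with Amuc_0904.

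**Figure D3:**
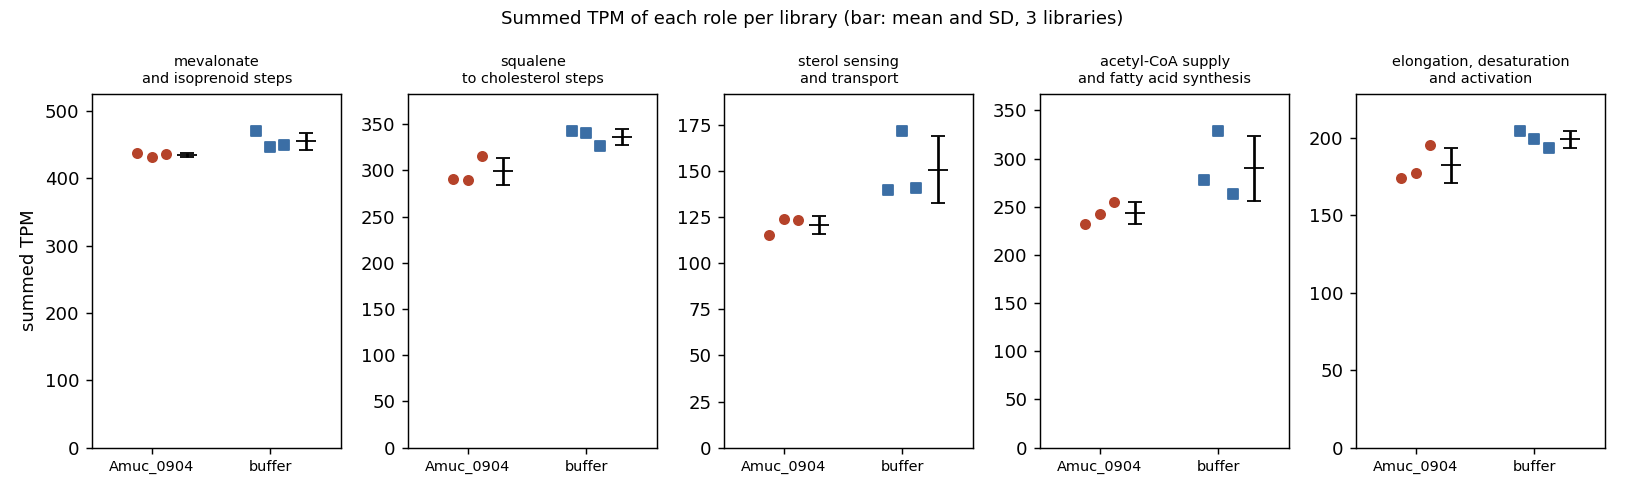
Summed TPM of the genes of each role in each library, with Amuc_0904 left of buffer, bars for the mean and SD of 3 libraries and axes from 0. The widest relative gap is in sterol sensing and transport, with means of 120.8 TPM with Amuc_0904 and 150.7 TPM with buffer.

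Summed by role, sterol sensing and transport transcripts came to 115.2, 123.9 and 123.5 TPM in Amuc_0904 libraries, against 139.9, 171.4 and 140.7 TPM in buffer libraries, a ratio of means of 0.802. The ratio was 0.839 for acetyl-CoA supply and fatty acid synthesis, 0.889 for squalene to cholesterol, 0.916 for elongation, desaturation and activation and 0.955 for the mevalonate and isoprenoid steps, where FDPS made up the larger part. Among these roles the groups overlapped only in the sum of elongation, desaturation and activation. The sum of the epithelial markers was also lower in every Amuc_0904 library (7092 to 7380 TPM, against 7907 to 8148 TPM). Shares over sums of other genes were not taken. Of the 30 genes, 12 had their highest value in buffer replicate 2 and 11 in buffer replicate 1, while 11 had their lowest in Amuc_0904 replicate 2 and 10 in Amuc_0904 replicate 1.

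The difference in GC slope between libraries ran through the 30 genes too. The 11 genes with a GC content of at least 55% (MVK, PMVK, MVD, FDPS, LSS, DHCR7, SREBF2, SCAP, SREBF1, FASN and FADS2) had a median log2 fold change of -0.30, and in 9 of them all Amuc_0904 libraries were lower. All 4418 tested genes of that GC content had a median of -0.18, and 37.8% had all Amuc_0904 libraries lower. The 10 of the 30 from 45% to 55% had a median of -0.14 and 5 such genes, against -0.07 and 19.4% of tested genes. The 9 under 45% had a median of -0.06 and HMGCS1 as the 1 such gene, against 0.03 and 5.01%.

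With each library's GC trend removed, the median of the 30 log2 fold changes was -0.09, against 0.00 for all tested genes, and 27 lay below 0 (all tested genes 50.4%). After this step all Amuc_0904 libraries were below all buffer libraries for 10 of the 30, or 33.3% (all tested genes 11.2%): HMGCS1, LSS, NSDHL, DHCR7, INSIG1, SREBF2, STARD4, SREBF1, ACSS2 and FADS1. FDPS was the 1 gene with all of them above (all tested genes 11.9%). SREBF2 then had a log2 fold change of -0.28 (limma adjusted p = 0.127), DHCR7 -0.15 (0.163) and HMGCS1 -0.26 (0.121), and 0 of the 30 passed. With each library centred on its median, 8 of the 30, or 26.7%, lay wholly below buffer (all tested genes 12%) and FDPS again wholly above (all tested genes 15.0%), and the median was -0.06, against 0.02. The part of GC content in these differences was not tested beyond these values.

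**Figure D4:**
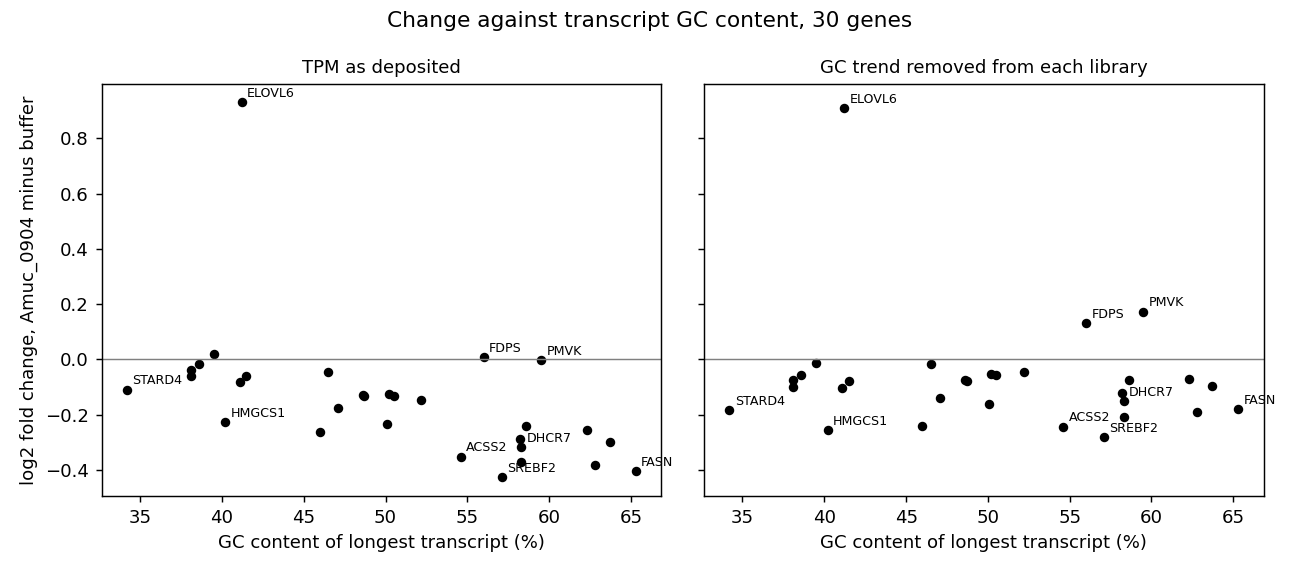
Log2 fold change of each of the 30 genes, Amuc_0904 minus buffer, against the GC content of its longest transcript, from TPM as deposited on the left and with each library's GC trend removed on the right. On the left the GC-rich genes lie lowest (median -0.30 for those of at least 55%), on the right their median is -0.12, and ELOVL6 stands apart in both.

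Across the 30 genes Pearson's r between GC content and log2 fold change was -0.51, and -0.65 over the 29 without ELOVL6. Over the 14277 tested genes with a GC content it was -0.35. Removing the GC trend takes this relation out of each library by design. After that step r over the 30 genes was -0.16, and 0.01 without ELOVL6. All points come from the same 6 libraries, so these are descriptions only.

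**Figure D5:**
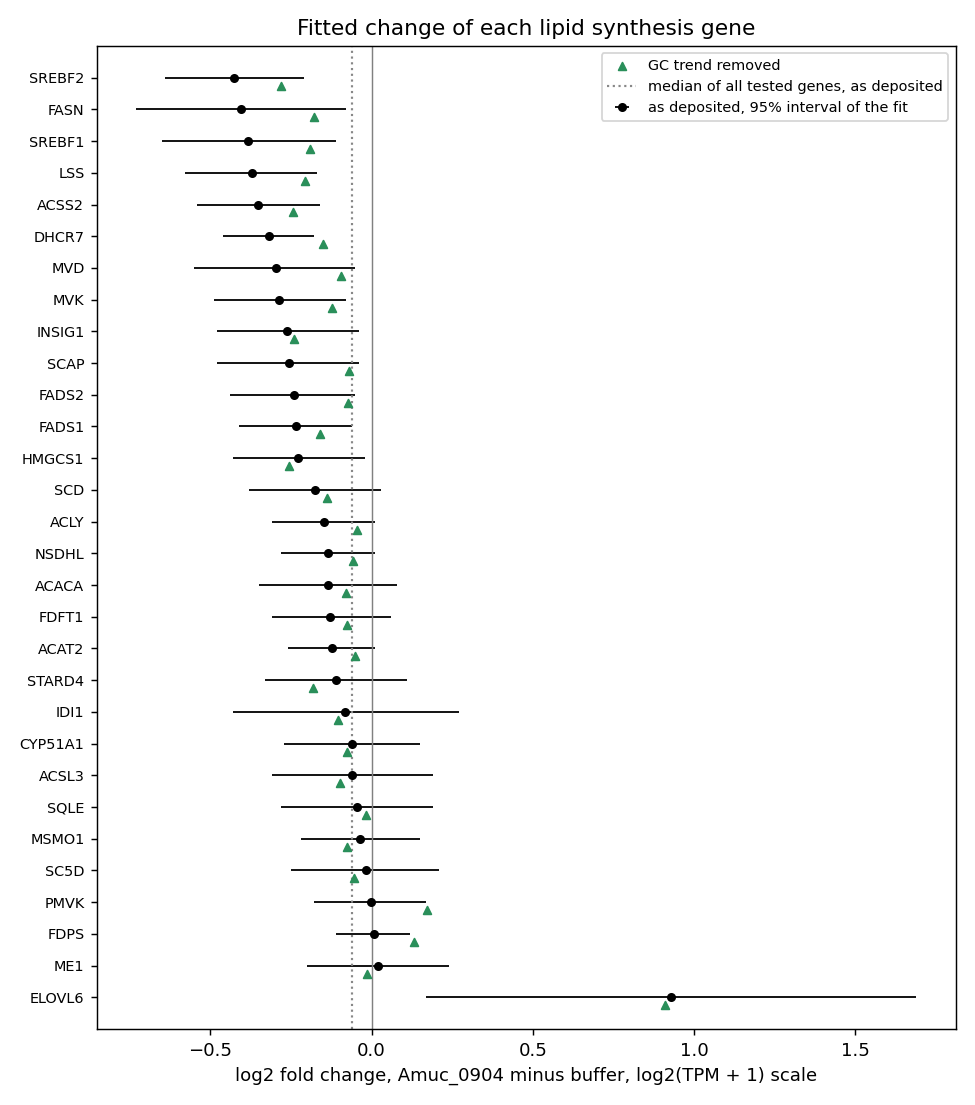
Log2 fold change of each gene, Amuc_0904 minus buffer, with the 95% interval of the fit (circles and lines), the value with the GC trend removed (triangles) and the median of all tested genes (dotted line). From SREBF2 at -0.43 to ELOVL6 at 0.93, 27 of the 30 circles lie below 0.

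Other genes of lipid metabolism were read from 4 lists, in none of which a tested gene passed in the limma fit. At an unadjusted p under 0.05 the limma fit placed 1 gene lower and 0 higher in SREBP processing and lipogenic partners, 2 lower and 1 higher among elongases, desaturases and acyl-CoA synthetases, 0 either way in LXR and sterol export, and 3 lower and 2 higher in fatty acid oxidation. With genes under a mean of 5 TPM left out, 2 genes of these lists passed, ACSL5 as higher and TECR as lower with Amuc_0904. Over all 10251 genes tested under that filter 366 passed, 65 higher and 301 lower. ACSL5, an acyl-CoA synthetase, averaged 20.4 ± 1.69 TPM with Amuc_0904 and 14.9 ± 0.762 TPM with buffer (limma adjusted p = 0.0577 with the main filter). Of 12 genes of SREBP processing and lipogenic partners, 0 passed (median -0.06). TMEM97 averaged 45.2 ± 2.95 TPM with Amuc_0904 and 43.5 ± 2.99 TPM with buffer and SLC25A1, the citrate carrier, averaged 39.4 ± 4.52 TPM with Amuc_0904 and 49.2 ± 2.77 TPM with buffer. Of 13 tested elongases, desaturases and acyl-CoA synthetases, 0 passed (median 0.01). TECR, a reductase of chain elongation, averaged 133 ± 7.39 TPM with Amuc_0904 and 169.8 ± 10.4 TPM with buffer (limma adjusted p = 0.053), and HSD17B12, another elongation enzyme, averaged 82.0 ± 6.95 TPM with Amuc_0904 and 76.1 ± 4.93 TPM with buffer. Of 7 tested genes of LXR and sterol export, 0 passed (median -0.08): NPC2, a lysosomal sterol carrier, averaged 795 ± 19.0 TPM with Amuc_0904 and 841 ± 37.4 TPM with buffer and NR1H2, an LXR receptor, 55.4 ± 5.11 TPM with Amuc_0904 and 62.8 ± 2.51 TPM with buffer. Of 14 genes of fatty acid oxidation, 0 passed (median -0.07): ETFB averaged 409 ± 40.5 TPM with Amuc_0904 and 460.1 ± 36.8 TPM with buffer and ACADVL 318 ± 16 TPM with Amuc_0904 and 360.1 ± 7.32 TPM with buffer. All errors are SD with n = 3 each.

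In GENCODE 29, 21 of the 30 genes overlap a gene on the other strand, such as MVK with MMAB, ACAT2 with TCP1 and SOD2 and ACSS2 with GGT7. FADS1 and FADS2, both among the 30, overlap each other on opposite strands, and FADS2 overlaps FEN1 on its own strand. The labels do not say whether libraries were stranded, so reads of such pairs may be shared.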

How the data were processed

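RNA from SW480 cells given Amuc_0904 or buffer was sequenced (3 libraries each). The deposited values are TPM per gene, rounded to 2 decimals by the authors. RSEM quantified gene abundances, per the series' design text, and HISAT2, StringTie and edgeR are also named, per the submitters' processing notes, without versions or roles. Those notes name the mouse build GRCm38.p6, while the gene identifiers are human. Depth cannot be had from TPM.

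Genes with at least 1 TPM in at least 3 libraries (14421) were tested with limma 3.58.1 (R 4.3.3) on log2(TPM + 1) with a mean-variance trend, two-sided, with Benjamini-Hochberg adjustment and a threshold of 0.05. Fold changes on this scale understate those of low genes. The procedure was tested on simulated data with independent noise in each gene, which did not include a difference in GC trend between libraries. All 30 genes are named. The 6 with the smallest adjusted p have every library given, and FASN and ELOVL6 were added after their values were seen. In each further list the genes past the threshold are named, otherwise the 2 most abundant. ACSL5, which passed under the filter on mean TPM, is named as well. The GC trend was a loess fit (span 0.3) per library on the GC content of the longest GENCODE 29 transcript, which 14277 tested genes had. Promoters came from RefSeq (GRCh38.p14). Tables and figures used Python 3.11.15, pandas 2.3.3 and matplotlib 3.10.9. The list of other sterol synthesis enzymes is not reported here. Genes and lists were chosen with earlier results of these data known. Alternatives were a pseudocount of 0.1, other filters and scalings, a replicate block and single libraries left out.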

Additional observations from a re-analysis of the deposited data

How the results depend on the processing

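The count of 0 among the 30 genes held under every alternative tried except a filter on a mean of at least 5 TPM, where 2 passed (DHCR7 and SREBF2); with single libraries left out it was 0 in all. The median log2 fold change of the 30 genes was -0.14, ran from -0.20 to -0.13 with single libraries left out, and moved to -0.06 with each library centred on its median. Calls over all tested genes numbered 197, and moved to 9 with no filter (30992 genes tested), 366 with a mean of at least 5 TPM (10251 tested), 85 centred, 102 with quantile normalization, 113 with the GC trend removed (74 rose and 39 fell, against 53 and 144), 29 at an adjusted p of 0.01, 13 without both buffer replicate 2 and Amuc_0904 replicate 3 (chosen after seeing the data), and 33 to 110 with single libraries left out, lowest without buffer replicate 2. With the replicate block there were 80 calls and 0 among the 30 genes. After group means were taken out, same-numbered libraries correlated at -0.0287, 0.0752 and -0.0938, and 2 of 6 correlated best with their own number. With 3 libraries per group these values cannot settle whether the numbers pair the libraries.

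Of 450 gene values under alternatives 417 kept their direction and side of the threshold, 2 came to pass it and 31 changed sign, and 21 of the 30 genes never did. Signs turned when centred for PMVK (0.0773), SQLE (0.0354), CYP51A1 (0.0208), MSMO1 (0.0437), SC5D (0.062) and ACSL3 (0.0201), and with quantile normalization for PMVK (0.0765), SQLE (0.0316), CYP51A1 (0.0101), MSMO1 (0.0409), SC5D (0.0679) and ACSL3 (0.0227). They turned without ribosomal protein and mitochondrially encoded genes for PMVK (0.0232) and SC5D (0.00737), with the GC trend removed for PMVK (0.172) and ME1 (-0.0132), and without both libraries named above for ME1 (-0.00358). With single libraries left out the ranges that crossed 0 were -0.0498 to 0.0579 for PMVK, -0.213 to 0.0665 for IDI1, -0.101 to 0.0448 for SC5D, -0.106 to 0.0487 for SQLE, -0.154 to 0.000373 for CYP51A1, -0.171 to 0.0195 for ACSL3, -0.0368 to 0.0793 for ME1 and -0.0046 to 0.027 for FDPS. The cause was not tested.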
